A study of Homo sapiens with 16 samples.

Results

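The neurotrophins are secreted survival and growth factors best known from neurons, and their receptors fall into separate families. The 8 genes described here were chosen by name, with earlier results of these data known, from the 20007 protein-coding genes of chromosomes 1 to 22, X and Y. They are 3 ligand genes (BDNF, NTF3 and NTF4), the p75 neurotrophin receptor gene NGFR, the Trk receptor kinase genes NTRK2 and NTRK3, and the sortilin family genes SORT1 and SORCS2. p75 binds all mature neurotrophins and, together with sortilin or SorCS2, their uncleaved precursors. TrkB, the product of NTRK2, is the receptor for BDNF and NTF4, and TrkC, the product of NTRK3, is the main receptor for NTF3. In the breast, p75 is known as a protein of the basal and myoepithelial layer. Trimethylation of histone H3 at lysine 4 (H3K4me3) marks start sites of active or poised genes, and trimethylation at lysine 27 (H3K27me3) is laid down by Polycomb complexes over genes that are kept silent.

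All libraries came from CUT&RUN in MCF-10A, an immortalized, nontransformed human breast epithelial line. In CUT&RUN an antibody directs a nuclease to cut DNA beside the marked histone, and the released fragments are sequenced. Cells exposed to 5 mM octanoic acid (OA), a medium-chain fatty acid, for 24 hours were compared with cells exposed to the PBS vehicle for the same time, with 3 biological replicates of each condition for each antibody. Untreated MCF-10A cells gave 2 further H3K4me3 libraries as positive controls and 2 IgG libraries as negative controls, so that 16 peak lists were available. The question was where the neurotrophin genes carried either mark with and without OA, and how NGFR compared with its family.

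A peak is a stretch in which fragments exceeded the local background in the authors' caller. The length covered by peaks within 3 kb of any GENCODE start site of a gene was the measure for H3K4me3, and the gene itself was added to these windows for H3K27me3, which spreads over gene bodies. In the narrow lists (H3K4me3 and IgG), fold enrichment is the height of a peak over its local background, with 1 read added to each. The added read lowers the fold of weak peaks most. The broad lists (H3K27me3) give a fold but no summit, or highest point, so their folds were not read as heights. The percentile of a peak is its rank by p-value among all peaks of its own library. It is 100 for the strongest peak and 0 where no peak was called. Absence of a call means a signal under the caller's threshold, not absence of the mark.

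Vehicle replicates 1, 2 and 3 had H3K4me3 lists of 19953, 16381 and 16086 peaks, and the lists of the OA replicates held 17988, 17975 and 21033. Vehicle replicate 3 stood apart. Its peaks covered 10.3 Mb, against 14.3 Mb to 21.2 Mb in the other 5 libraries, and the most frequent local background of its peaks was 0.450 reads, against 0.633 to 0.853 reads in the others. It was the value of 8.15% of its peaks and of 3.17% to 10.8% of the peaks of the others. This background scales with depth unless a control library set it. For H3K27me3, OA replicate 3 had the fewest peaks, with 9091 against 18801 to 47648 in the others. The depth of the H3K27me3 libraries is unknown.

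Of the 8 genes, NGFR had the largest difference in H3K4me3 at its start sites (Ensembl ENSG00000064300.9, chr17:49495293-49515008 of hg38, plus strand). Peaks covered 191, 0 and 0 bp in vehicle replicates 1, 2 and 3. In OA they covered 1253, 1539 and 1820 bp. The OA libraries all lay above the vehicle libraries, with 63.7 ± 110 bp in vehicle and 1537 ± 284 bp in OA (SD, n = 3 each). The difference of 1474 bp was larger than the spread in either group and its two-sided exact permutation p was 0.1, the lowest that a design of 3 against 3 can give. Because NGFR was chosen with results of these data known, this p is no independent evidence. After Benjamini-Hochberg adjustment over the 14138 genes with a call the p was 1, which was also the smallest adjusted p of any gene. By size the difference ranked 34 of 14138, and 20 of 14062 without vehicle replicate 3, where it was 1442 bp. None of the 2 untreated H3K4me3 and 2 IgG libraries had a peak at NGFR. In such cultures, more cells with the mark and more mark per cell cannot be told apart.

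The calls in NGFR joined into a region at chr17:49495117-49496936 that covers 2 of its 3 annotated start sites and the first exon of the canonical transcript. The weak vehicle call at its start had a fold enrichment of 4.75 and stood at percentile 6.44 of its library. The OA peaks had folds of 6.27, 10.9 and 9.61 and stood at percentiles 58.7, 94.4 and 91.4. OA replicate 1 was thus the weakest of the 3, and replicates 2 and 3 placed NGFR among the strong peaks of their lists. The mean percentile was 2.15 ± 3.72 in vehicle and 81.5 ± 19.8 in OA (SD, n = 3). Percentiles are ranks within lists of unequal length, with 0 where no peak was called, and are given without a test. Solved from fold and p-value, the reads stacked on the summit numbered 8 in vehicle replicate 1 and 38, 165 and 140 in OA, over local backgrounds of 0.893, 5.22, 14.2 and 13.7 reads. A short intronic region at chr17:49508001-49508416 was called in vehicle replicate 1 and OA replicate 1. The unnamed gene ENSG00000279036 starts within 1 kb of the first region, so these calls cannot be assigned to NGFR alone.

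**Figure D1:**
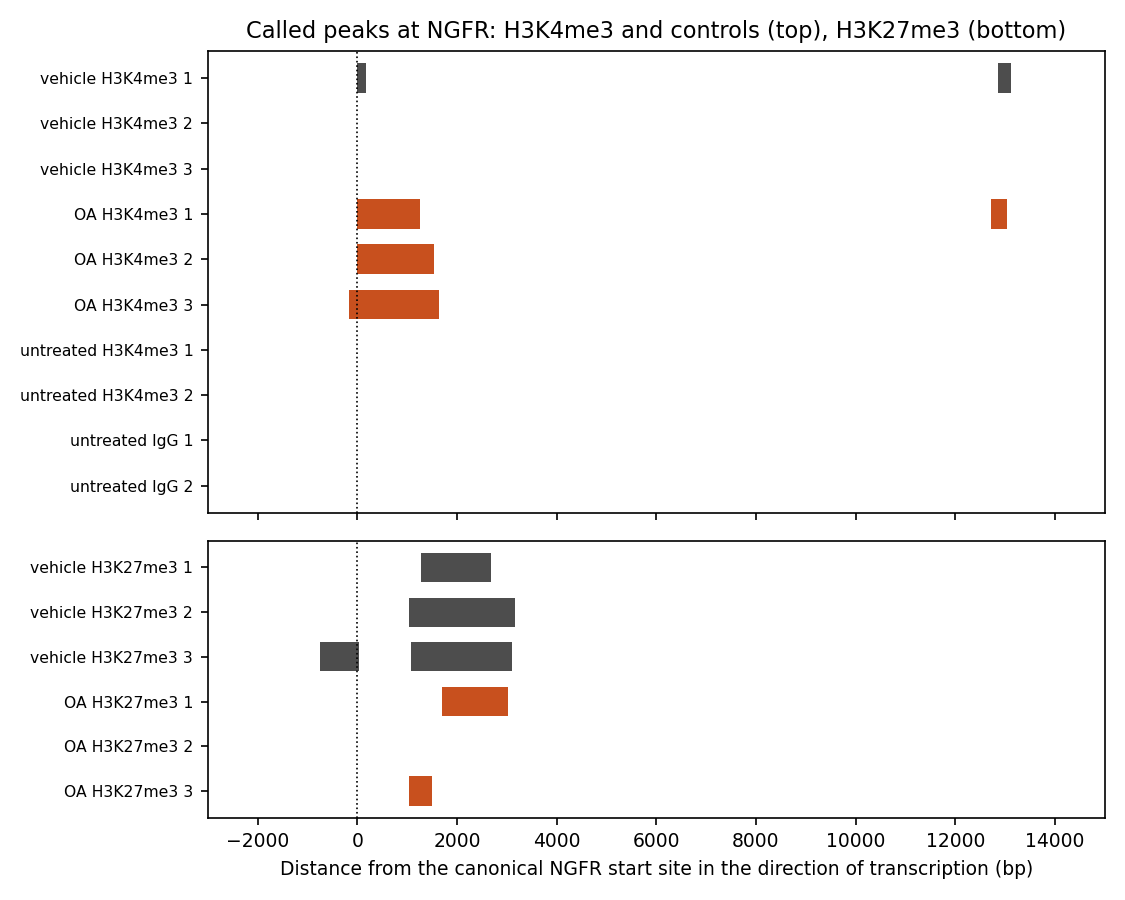
Called peaks at NGFR as bars, 1 row per library, against the distance in bp from the canonical start site (dotted line), with H3K4me3 and IgG libraries above and H3K27me3 libraries below, in dark grey for vehicle and orange for OA. The 3 OA H3K4me3 peaks of 1253, 1539 and 1820 bp begin at or just before the start site, and the H3K27me3 peaks lie mostly downstream of it.

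H3K27me3 at NGFR partly overlapped the H3K4me3 region, extended downstream of it, and was shorter in OA in these lists. Peaks covered 1396, 2134 and 2822 bp in vehicle, against 1339, 0 and 456 bp in OA. Every OA library was below every vehicle library, although OA replicate 1, at 1339 bp, was close to vehicle replicate 1, at 1396 bp. The means were 2117 ± 713 bp and 598 ± 681 bp (SD, n = 3), a difference of −1519 bp (two-sided exact permutation p = 0.1, adjusted p = 1). With the same number of strongest peaks taken from each library the difference was −578 bp with p = 0.5 in the same exact test. At a q-value of at most 1e-05 no library had an H3K27me3 peak at NGFR. In the share of genes whose OA libraries all lay below the vehicle libraries the background was 5.38%, or 359 of 6667 genes, and NGFR was the sole member of the family among them.

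The main H3K27me3 region of NGFR, chr17:49496324-49498457, had a call in every vehicle library and, in OA, in replicates 1 and 3. A separate peak of 794 bp over the start site was called in vehicle replicate 3 alone. The folds of all these peaks were between 2.82 and 3.56, and the percentiles ran from 38.6 to 83.1 in vehicle and were 73.4 and 31.0 in OA replicates 1 and 3. Joined over the libraries of a condition, peaks of both marks overlapped over 49 bp of the gene in vehicle and 456 bp in OA. The libraries of each antibody come from separate reactions, so that overlap does not show both marks on the same chromosomes.

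Among the ligand genes, BDNF (ENSG00000176697.20, chr11:27654893-27722058, minus strand) had H3K4me3 in every library of the comparison. It encodes brain-derived neurotrophic factor and has 11 distinct annotated start sites. The region chr11:27698841-27701699 covers 6 of them, and the region chr11:27718652-27719701 ends 46 bp from another. Both were called in all 6 libraries. Its peaks covered 2585, 3571 and 1806 bp in vehicle, against 2924, 3443 and 3785 bp in OA. The groups overlapped, with 2654 ± 885 bp and 3384 ± 434 bp (SD, n = 3, difference 730 bp, two-sided exact permutation p = 0.3). The difference was 306 bp without vehicle replicate 3 (p = 0.6 in the exact test) and 1189 bp without vehicle replicate 2 (p = 0.1 in the exact test). By percentile the strongest BDNF peak stood at 53.1, 53.1 and 54.4 in vehicle and at 70.6, 67.0 and 93.1 in OA. These are ranks within lists of unequal length and are given without a test. In all 3 OA libraries and in vehicle replicates 1 and 3 this strongest peak was the one of the second region. In vehicle replicate 2 it was the one of the first region.

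NTF4 and NTF3, the other ligand genes, differed from each other. NTF4 (neurotrophin 4, ENSG00000225950.9, chr19:49061066-49065076, minus strand) had a region at chr19:49064118-49065141 over 4 of its 5 start sites. It was called with 1024, 641 and 0 bp in vehicle and with 776, 781 and 944 bp in OA. The vehicle libraries thus spanned the OA libraries, and vehicle replicate 3 had no call. The difference of 279 bp had p = 0.5 in the two-sided exact permutation test, and it was 1.17 bp without vehicle replicate 3 and 513 bp without vehicle replicate 1 (p = 0.1 in the same exact test). Other genes also start within 1 kb of this region (ENSG00000268287 and ENSG00000283663). NTF3 (neurotrophin 3, ENSG00000185652.12, chr12:5432108-5521536, plus strand, 6 start sites) had no call of either mark in any library.

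Of the Trk kinase genes, NTRK2 had weak and variable H3K4me3 and NTRK3 had none at a start site. At NTRK2 (ENSG00000148053.18, chr9:84668375-85095751, plus strand, 30 start sites) peaks covered 240, 0 and 171 bp in vehicle, against 0, 366 and 1682 bp in OA. OA replicate 3 alone had a long peak, at fold 6.72 and percentile 36.0, and OA replicate 1 had no call. The difference of 546 bp did not exceed this spread (two-sided exact permutation p = 0.5). It was 46.0 bp without OA replicate 3 and 887 bp without OA replicate 1 (p = 0.1 in the exact test). NTRK3 (ENSG00000140538.17, chr15:87859751-88256791, minus strand, 18 start sites) had a single intronic H3K4me3 peak of 154 bp in vehicle replicate 3, outside the start site windows.

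The sortilin genes also differed. SORT1 encodes sortilin, which sorts proteins in the Golgi as well as binding precursor neurotrophins (ENSG00000134243.12, chr1:109309568-109397918, minus strand). Its region chr1:109397067-109398407 was called in all 6 libraries. Peaks covered 754, 914 and 375 bp in vehicle and 1063, 929 and 1322 bp in OA. All OA libraries were above all vehicle libraries, but OA replicate 2, at 929 bp, was close to vehicle replicate 2, at 914 bp. The means were 681 ± 277 bp and 1105 ± 200 bp (SD, n = 3, difference 424 bp, two-sided exact permutation p = 0.1, adjusted p = 1), and the difference was 271 bp without vehicle replicate 3 (p = 0.2 by the exact test). The percentiles of 36.9, 27.9 and 27.5 in vehicle and 35.0, 29.7 and 44.5 in OA overlapped. SORCS2 (ENSG00000184985.16, chr4:7192538-7742836, plus strand) had no H3K4me3 call at any of its 4 start sites, and its 5 intronic calls of 153 to 232 bp were each found in a single library.

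NGFR and SORT1, 2 of the 5 genes with an H3K4me3 call at a start site, had more covered length in every OA library than in every vehicle library. Over all 14138 genes with a call this held for 1241, or 8.78%, and the opposite for 41, or 0.29%. The background itself leaned toward OA, with a median difference of 133 bp and a positive difference at 76.7% of genes. This lean was absent without vehicle replicate 3, where the median was −18.6 bp, 46.4% of differences were positive, and 8.85% of genes were higher and 14.1% lower in every OA library. NGFR and SORT1 were still higher in every OA library. The difference at SORT1 ranked 2203 of all genes, far below that of NGFR.

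**Figure D2:**
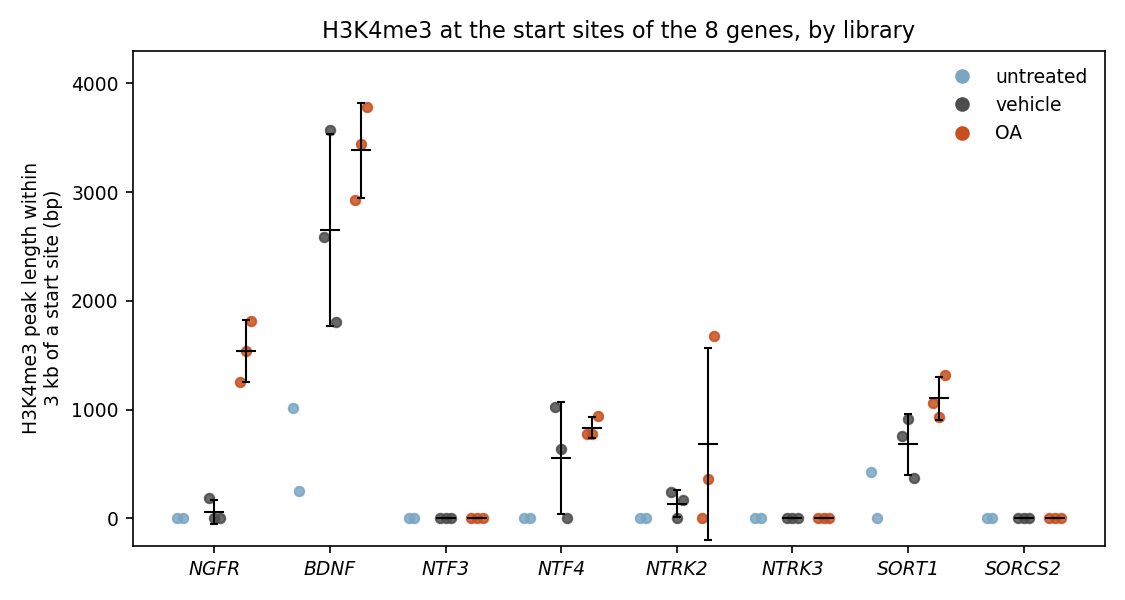
H3K4me3 peak length within 3 kb of a start site, in bp, for the 8 genes in each untreated, vehicle and OA library (points), with the mean and SD of the 3 vehicle and 3 OA libraries (black). NGFR is the gene whose vehicle points lie at or near 0 while all OA points lie between 1253 and 1820 bp.

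**Figure D3:**
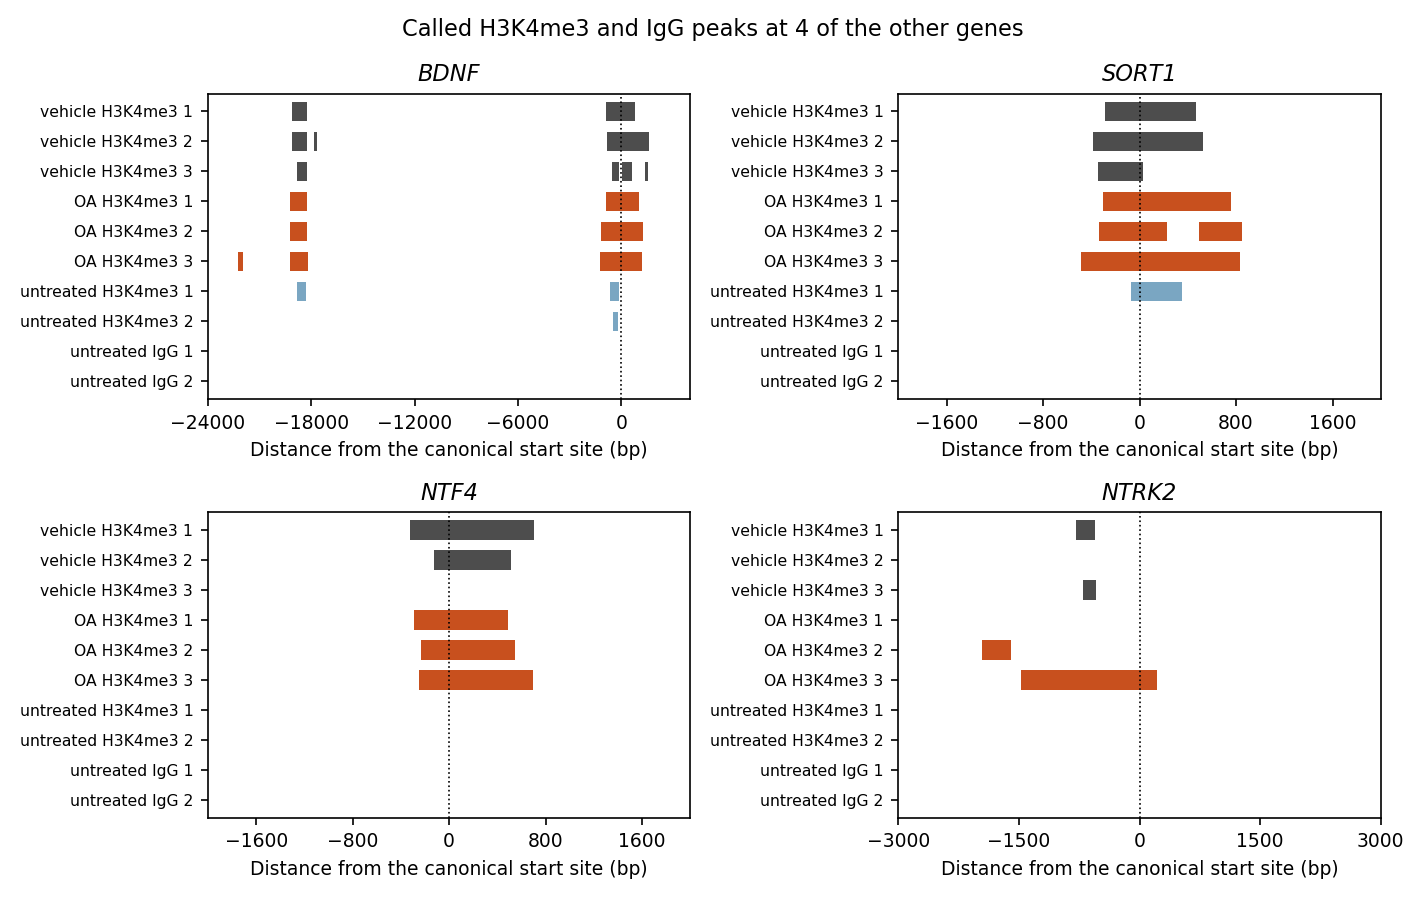
Called H3K4me3 and IgG peaks at BDNF, SORT1, NTF4 and NTRK2 as bars, 1 row per library, against the distance in bp from the canonical start site in the direction of transcription. BDNF and SORT1 have calls in all 6 vehicle and OA libraries, NTF4 in 5, and NTRK2 has scattered calls.

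Set against the mean of the other 7 genes in the same library, NGFR was below its family in vehicle and above it in OA. The per-library difference was −512 ± 202 bp in vehicle and 679 ± 94.2 bp in OA (SD, n = 3), which is a difference of 1191 bp, or 1279 bp without vehicle replicate 3. The groups did not overlap, and no p is given for this value, which is a score over the chosen genes. The other genes averaged 575 bp in vehicle and 858 bp in OA. Gene by gene the difference at NGFR exceeded that at BDNF by 744 bp, at NTRK2 by 928 bp, at SORT1 by 1050 bp and at NTF4 by 1195 bp. The contrast with BDNF was the smallest, and its per-library values had a wide spread in vehicle (SD 899 bp).

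Because genes differ in their number of start sites, levels were compared as the percent of the window covered. In vehicle the order was BDNF with 8.11% to 16.03%, NTF4 with 0% to 12.2%, SORT1 with 1.17% to 2.85%, NGFR with 0% to 2.36% and NTRK2 with 0% to 0.601%, and each gene overlapped the next. In OA, NGFR stood first by this measure with 15.5% to 22.5% and overlapped BDNF with 13.1% to 17.0%. NTF4 followed with 9.23% to 11.2%, without overlap with BDNF. SORT1 covered 2.90% to 4.13% and NTRK2 0% to 4.21%, and these overlapped. NTF3, NTRK3 and SORCS2 stayed at 0% in every library.

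Among the other genes, the long receptor genes NTRK2 and SORCS2 had H3K27me3 calls in all 6 libraries. Of all 20007 protein-coding genes, 1308 had such calls in all 6 libraries and 13340 had none in any. NTF3, NTF4 and SORT1 had no H3K27me3 call, and BDNF had a single call of 352 bp in OA replicate 1, outside the gene. At NTRK2 the region chr9:84669839-84671119, which covers start sites of the gene, was called in all 6 libraries. Over the whole gene, peaks covered 184, 4503 and 2574 bp in vehicle and 2835, 3081 and 1324 bp in OA. The groups overlapped widely, with 2420 ± 2164 bp and 2413 ± 951 bp (SD, n = 3, difference −7.00 bp, two-sided exact permutation p = 1), and the sign of the difference turned under several alternatives. As a share of the counted length these were 0.0428%, 1.05% and 0.598% in vehicle, against 0.659%, 0.716% and 0.308% in OA, below the share of the genome in peaks in vehicle replicate 1 (0.305%) and above it in the other 5 libraries. The gene spans 427 kb and held 25 H3K27me3 regions, of which 20 were called in a single library. Over the whole genome this held for 65916 of 98559 regions. In the joined lists no base of NTRK2 lay in peaks of both marks, as H3K4me3 lay upstream of the H3K27me3 peaks of the same condition. NTRK3 had a start site region at chr15:88254491-88256489 in replicate 1 of vehicle (789 bp) and of OA (1999 bp) and none in the other libraries.

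SORCS2 had the most H3K27me3 of the 8 genes in total bp in each of the 6 libraries, while per counted length NGFR was higher in each vehicle library, with 6.15%, 9.39% and 12.4%, and in OA replicates 1 and 3, with 5.89% and 2.01%. Peaks covered 11148, 23261 and 13718 bp in vehicle and 13089, 11217 and 1842 bp in OA. OA replicate 3, the library with the fewest peaks, was far below the rest, and the other libraries overlapped. The means were 16042 ± 6382 bp and 8716 ± 6026 bp (SD, n = 3, difference −7326 bp, two-sided exact permutation p = 0.3), and the difference was −3889 bp without OA replicate 3 and −3717 bp without vehicle replicate 2. With the same number of strongest peaks from each library it was −610 bp, and at a q-value of at most 1e-05 no library had a call. As a share of the counted length these were 2.02%, 4.20% and 2.48% in vehicle, against 2.37%, 2.03% and 0.333% in OA. In the same libraries H3K27me3 peaks covered 0.305%, 0.814% and 0.431% and then 0.488%, 0.382% and 0.113% of the genome, so the share at SORCS2 was higher in each of the 6. Of its 64 regions, 26 had a call in at least 2 libraries and 2 in all 6. These were chr4:7187841-7190173, which ends 2365 bp upstream of the gene, and the intronic region chr4:7518006-7521237. Over the whole genome, 32643 of 98559 regions had a call in at least 2 libraries and 1325 in all 6.

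No member had longer H3K27me3 in every OA library, where the background was 0.51%, or 34 of 6667 genes. Without OA replicate 3 this background was 4.57%, or 302 of 6612 genes, and again no member was among them. The median difference over all genes was −107 bp, and −54.2 bp without OA replicate 3. Without that library the difference at NGFR was −1448 bp, and its remaining OA libraries stayed below the vehicle libraries. The difference at NGFR ranked 487 from the most negative, and that at SORCS2, a far longer gene, ranked 32.

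**Figure D4:**
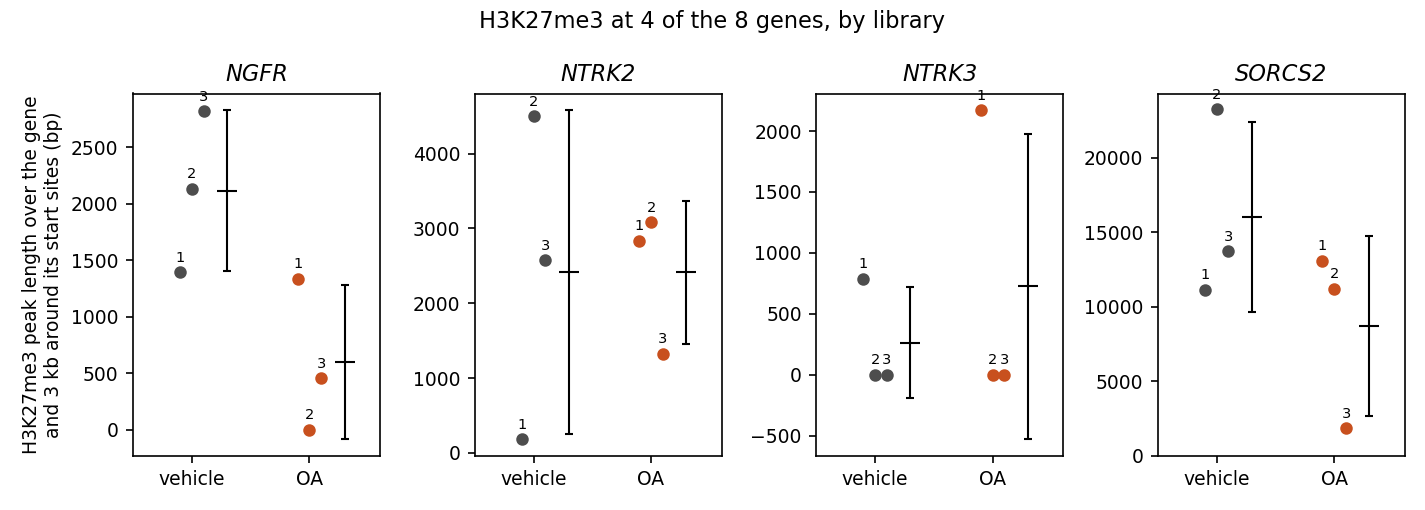
H3K27me3 peak length in bp over the gene and 3 kb around its start sites for NGFR, NTRK2, NTRK3 and SORCS2 (points, numbered by replicate, each panel with its own scale), with mean and SD of 3 libraries. Vehicle and OA overlap in every panel except NGFR, where OA replicate 1 with 1339 bp lies just below vehicle replicate 1 with 1396 bp.

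**Figure D5:**
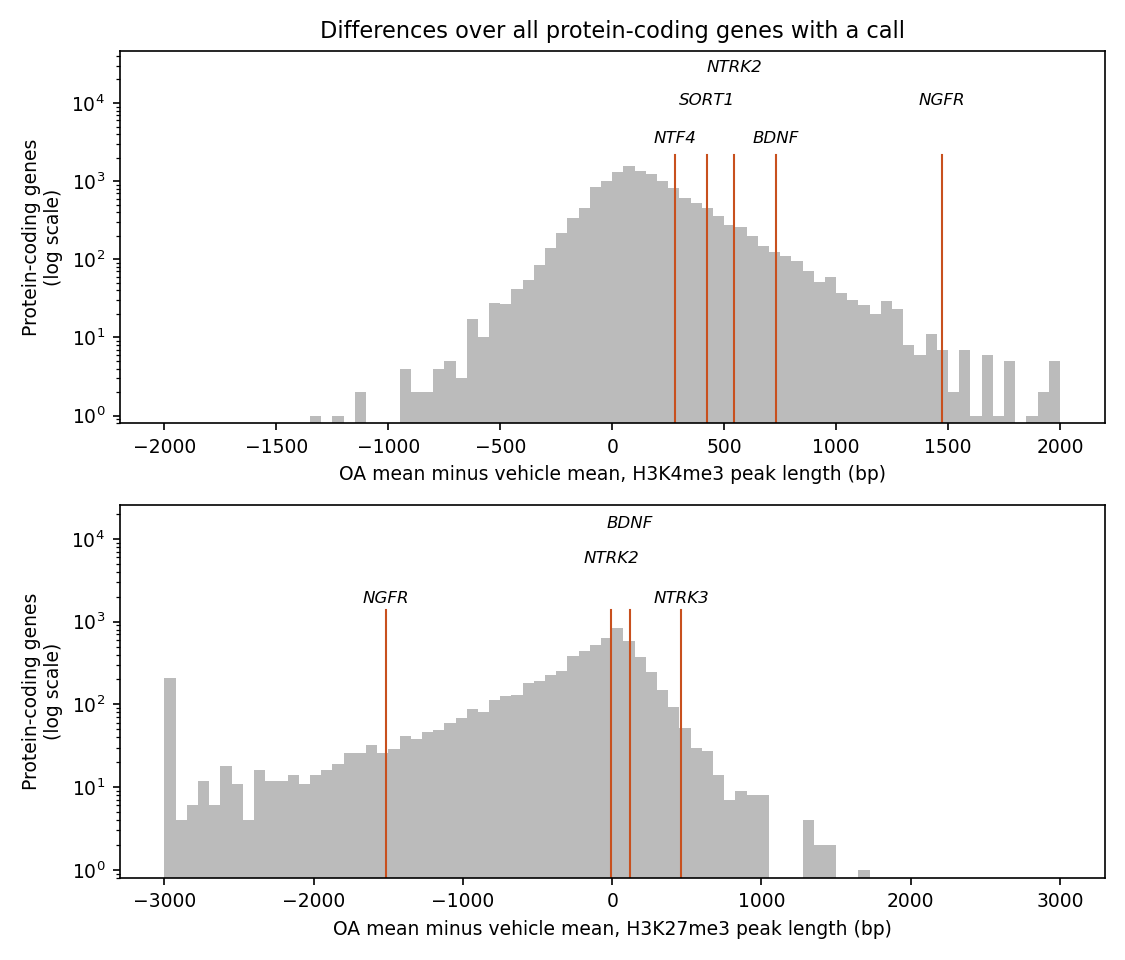
Number of protein-coding genes (log scale) by OA mean minus vehicle mean of peak length in bp, for H3K4me3 above and H3K27me3 below, with members marked by lines and values beyond the axis placed in the outermost bins. NGFR lies at 1474 bp in the right tail for H3K4me3 and at −1519 bp for H3K27me3, and SORCS2, at −7326 bp, is beyond the lower axis and is not marked.

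Promoter windows from RefSeq (GRCh38.p14, 250 bases before a start site) were held for 6 of the 8 genes, with 15 windows in all, and NGFR and SORCS2 had no entry in the table. Shown first is the window of SORT1 (chr1:109397919-109398168, minus strand), overlapped by an H3K4me3 call in all 6 libraries. That of NTF3 (chr12:5431858-5432107, plus strand) was overlapped by none. The last is of the BDNF start site whose window lies at the edge of the first region (chr11:27701622-27701871, minus strand). It was overlapped in part, at the end near the start site, by a call in OA replicates 2 and 3 alone. The windows are written 5′ to 3′ on the gene's strand, with CG dinucleotides in capitals.
SORT1: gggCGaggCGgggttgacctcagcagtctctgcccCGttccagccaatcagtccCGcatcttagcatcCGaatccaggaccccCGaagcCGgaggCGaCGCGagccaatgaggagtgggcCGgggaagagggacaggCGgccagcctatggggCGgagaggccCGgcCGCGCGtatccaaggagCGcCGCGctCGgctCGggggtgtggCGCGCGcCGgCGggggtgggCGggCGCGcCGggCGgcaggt
NTF3: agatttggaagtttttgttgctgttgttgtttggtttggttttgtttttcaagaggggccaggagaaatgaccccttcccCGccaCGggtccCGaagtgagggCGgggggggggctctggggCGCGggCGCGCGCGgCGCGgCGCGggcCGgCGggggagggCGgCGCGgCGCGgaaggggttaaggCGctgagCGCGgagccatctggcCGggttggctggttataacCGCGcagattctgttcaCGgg
BDNF: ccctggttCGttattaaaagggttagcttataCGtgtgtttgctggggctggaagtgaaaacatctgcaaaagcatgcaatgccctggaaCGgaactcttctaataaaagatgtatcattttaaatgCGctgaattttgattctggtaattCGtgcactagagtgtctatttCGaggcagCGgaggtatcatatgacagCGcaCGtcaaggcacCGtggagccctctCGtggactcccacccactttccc

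A window counted as called where a peak overlapped it, and the SORT1 window was the only one of the 15 called in all 6 libraries. It held 32 CG dinucleotides at 74.0% GC, an observed over expected ratio of 0.959. That of NTF3 held 28 at 66.4% GC, with a higher ratio of 1.14, and the BDNF window held 11 at 46.8% GC with a ratio of 0.805. Over all 35116 RefSeq windows, the 8998 called in all 6 libraries had a median GC content of 66.8% and a median ratio of 0.861, and the 19219 called in none had 48.8% and 0.255. The NTF3 window thus had values near those of the called windows, without a call. The NTRK3 window, with 73.2% GC and a ratio of 0.887, also had no call of either mark.

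Motifs were searched on both strands in all 15 windows. They were the E-boxes CAGGTG and CAGCTG, the AP-1 motif TGACTCA, the CRE motif TGACGTCA, the ATF4-type motif TGATGCAA and TATAAA, none of which overlapped another in these windows. A match was found in a single window, that of the NTRK2 start site chr9:84669783-84670032, with CAGGTG 70 bases and its reverse complement CACCTG 51 bases before the start. CAGGTG was present in 17.5% of all windows, CAGCTG in 14.0%, TGACTCA in 4.20%, TGACGTCA in 1.65%, TGATGCAA in 0.772% and TATAAA in 10.7%. No match says only that these letters are not in these windows.

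The rest of the pathway was read from 6 lists with 53 genes, of which 45 had an H3K4me3 call at a start site and 35 had one in all 6 libraries. These are 84.9% and 66.0% of the lists, beside 70.7% and 56.4% of all protein-coding genes. In every OA library 6 of the 45 were longer than in every vehicle library and 0 were shorter, which is 13.3% beside the background of 8.78%. Without vehicle replicate 3 the same 6 genes were longer, and 8 were shorter, among them CRK, EGR1, KIDINS220, PTPN11, SH2B1 and SHC1. Of all genes with a call in the same libraries, 8.85% were longer and 14.1% shorter. The median difference of the lists was 236 bp with all libraries and 10.7 bp without that library. These shares are near the background and are given as a description.

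Of the co-receptors and relatives of p75, all 4 had a call and 2 were longer in every OA library. LINGO1, a partner of p75 in receptor complexes that restrain axon growth, had 0 bp in each vehicle library and 395, 184 and 434 bp in OA. TNFRSF19, a receptor of the same superfamily, had 693, 635 and 225 bp in vehicle and 794, 908 and 1203 bp in OA. LRP1 and RTN4R had overlapping groups. Among the other sortilin family receptors, SORL1 was called in all 6 libraries with a difference of −14.7 bp, or −120 bp without vehicle replicate 3, and SORCS1 and SORCS3 had no H3K4me3 call. Like SORCS2, they had H3K27me3 calls, in 3 vehicle and 3 OA libraries for SORCS1 and in 3 and 2 for SORCS3.

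Of the intracellular partners of p75, 10 of 12 were called in all 6 libraries and 0 separated the groups. Their median difference was 370 bp, and 65.3 bp without vehicle replicate 3. The examples ARHGDIA, BEX3 and IRAK1 had differences of 356, 205 and 188 bp, and of −51.5, 70.8 and −241 bp without that library, and BEX1 and NDN had no call. All 15 adaptor genes of the Trk kinases had a call, 13 of them in all 6 libraries, with a median difference of 69.7 bp, and −70.0 bp without vehicle replicate 3. The adaptors SHC2 and SHC4 were longer in every OA library and 0 were shorter. Without vehicle replicate 3 these 2 were again longer, and 5 adaptors (CRK, KIDINS220, PTPN11, SH2B1 and SHC1) were shorter in every OA library. Of all genes with a call in the same libraries, 8.85% were longer and 14.1% shorter. SHC2 had 195, 0 and 0 bp in vehicle and 322, 494 and 898 bp in OA, and SHC4 had 1641, 1723 and 768 bp and then 1782, 1935 and 2346 bp.

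In the list for cleavage of precursors and receptors, 8 of 10 genes had a call, with a median difference of 260 bp, or 68.5 bp without vehicle replicate 3, and PLG and MMP9 had none. PCSK5, a proprotein convertase, had 425, 0 and 0 bp in vehicle and 1133, 1037 and 1351 bp in OA, the pattern closest in size to that of NGFR among the lists. ADAM17, FURIN and PCSK6 had differences of 369, 312 and 360 bp with overlapping groups, and of 136, 144 and 126 bp without that library. Neurotrophin response genes had a call in 7 of 9 cases and a median difference of 518 bp, or 120 bp without vehicle replicate 3. EGR2, an immediate early transcription factor, was longer in every OA library, with 1060, 1163 and 391 bp in vehicle and 1571, 1855 and 1965 bp in OA. CREB1, EGR1 and FOS had differences of −102, −323 and 577 bp, and of −317, −581 and 391 bp without that library, and ARC and RIT2 had no call. For H3K27me3, 20 of the 53 genes (37.7%) had a call, beside 33.3% of all protein-coding genes. Of these 20, 1 was shorter in every OA library, beside 5.38% of all genes with a call. It was RIT2, with a mean of 2635 bp in vehicle and 784 bp in OA. Longer in every OA library were 0 of the 20, beside 0.51%. Without OA H3K27me3 replicate 3, RIT2 was again shorter and PCSK6 was longer, beside 5.82% and 4.57% of all genes.

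The genes whose strongest H3K4me3 peak had percentiles most like those of NGFR over the 6 libraries were found by Euclidean distance over all protein-coding genes. The nearest were ZDHHC11B at a distance of 15.02, TPPP at 20.4, PPP2R2C at 30.05, STK32A at 41.3 and PCDH1 at 41.3 percentile points. ZDHHC11B had no vehicle peak and percentiles of 71.1, 96.9 and 86.4 in OA. It has a close paralog, so its reads may be shared. TPPP likewise had no vehicle peak, and 76.7, 96.6 and 84.6 in OA. None of these genes belongs to the lists above, and the pattern was chosen by likeness, so it carries no test.

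The label MCF-10A was checked by H3K4me3 calls at marker genes. Of 10 epithelial and basal markers, 10, 10 and 5 had a call in the vehicle libraries, 8, 9 and 9 in OA, and 8 and 7 in the untreated libraries, with a summed length of 16286, 16525 and 3992 bp, then 10570, 14917 and 14533 bp, and then 6177 and 5536 bp. LAMB3, at 3307 bp in vehicle replicate 2, was the longest. The median difference of this list was 179 bp, and 1 of the 10 genes was longer in every OA library and 0 were shorter. The longer gene was CDH1, for E-cadherin, with 1379, 1333 and 0 bp in vehicle, against 1480, 1683 and 1676 bp in OA. KRT14, a basal keratin gene, had 1121, 747 and 0 bp in vehicle and 0 bp in each OA library, with overlapping groups (two-sided exact permutation p = 0.4). Without vehicle replicate 3, in which 5 of these markers had no call, the median difference was −210 bp and 4 of the 10 were shorter in every OA library, beside 14.1% of all genes. These were KRT14, KRT5, ITGA6 and LAMB3, with differences of −934, −368, −261 and −1130 bp, and CDH1 was still longer. CDH1, KRT14 and the luminal gene FOXA1 were chosen after their values were seen. Of 6 luminal markers, 4 to 5 were called in each vehicle and OA library, PGR had no call, and FOXA1 alone was longer in every OA library, with a difference of 318 bp. Of 10 neuronal and glial markers, 3 were called in each vehicle library and 3, 3 and 5 in OA, with a summed length of 2626, 2915 and 615 bp and then 1696, 2945 and 4936 bp and TUBB3, at 1892 bp, the longest. GFAP, SOX10 and S100B had no call in any library, RBFOX3 had one in vehicle replicate 3 alone, and SNAP25 and ELAVL3 in OA replicate 3 alone. SYP and MAP2 were called in all 6 vehicle and OA libraries. The median difference of this neuronal and glial list was 196 bp, or 212 bp without vehicle replicate 3. In both cases 0 of its genes were longer and 0 shorter in every OA library. Of 6 markers of other cell types, 1 or 2 were called in each vehicle and OA library, and the untreated libraries had no call at these or at the neuronal and glial markers. The part of these differences in the result at NGFR was not tested.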

How the data were processed

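The authors prepared CUT&RUN libraries of about 900000 MCF-10A cells each, named MACS2 v2.2.7.1 for H3K4me3 and SICER2 for H3K27me3 peaks, and deposited 16 peak lists, 1 per library. However, the columns of the H3K27me3 files are those of a MACS2 broadPeak table and were read as such. Each deposited peak has a fold enrichment, a −log10 p-value and a −log10 q-value, with q up to 0.01 in narrow and 0.1 in broad lists. In the narrow lists the fold is a ratio of summit reads to the caller's local background, with a pseudocount of 1 added to both. The broad lists hold no summit. Folds, p-values and q-values were not scaled to one another across libraries. The labels' processing notes give hg38, and 0 of 301646 peaks ran past a chromosome end of that build. The aligner, duplicate handling and use of IgG as control are not given in the sources used here.

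Members and lists were chosen with earlier results of these data known. Covered length was taken within 3 kb of GENCODE release 44 start sites, and conditions were compared by two-sided exact permutation tests over libraries (20 assignments) with Benjamini-Hochberg adjustment over all protein-coding genes with a call. Replicate numbers come from the labels, which describe biological triplicates. Peaks on other contigs were left out. Merged regions share at least 1 bp. They were kept with a call in at least 2 libraries, and the 8 genes held 7 such H3K4me3 regions and 33 H3K27me3 regions. Summit reads were solved from fold and −log10 p for narrow peaks up to a −log10 p of 250, within 0.001, after the data were seen. At least 99.9877% of the peaks tried in any narrow list had a whole-number solution.

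Named were the 8 members, and from the lists the genes with no H3K4me3 call, those whose groups did not overlap and up to 3 others per list. Some genes of the lists are not reported here by name. Alternatives were a q-value of at most 1e-05, equal numbers of peaks, 1 kb windows, canonical start sites, removal of IgG regions, H3K27me3 peaks within 5 kb joined, start site windows alone, the omission of single replicates and a block for the replicate number, and for merged regions a call in any 1 library, an overlap of at least 50% and the addition of untreated libraries. The start site windows alone, and list and marker counts without vehicle H3K4me3 replicate 3 or OA H3K27me3 replicate 3, were chosen after seeing the data. The comparison of reads per region in the study's methods was not repeated, since the lists hold peaks alone. Calculations were tested on simulated data. Python 3.11.15, numpy 2.4.6, pandas 2.3.3, scipy 1.17.1 and matplotlib 3.10.9 were used. Sequences are from RefSeq, GRCh38.p14.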

Additional observations from a re-analysis of the deposited data

Results flagged for a closer look

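The untreated H3K4me3 libraries, which enter no comparison, had calls at 2 of the 8 genes where both IgG libraries had 0 bp. At BDNF they covered 1020 bp in replicate 1 and 253 bp in replicate 2, below each vehicle library (1806 to 3571 bp). At SORT1 they covered 424 bp in replicate 1 and 0 bp in replicate 2, beside 375 to 914 bp in vehicle. These libraries held 12924 and 11242 peaks, fewer than any vehicle or OA H3K4me3 library, and whether they were prepared together with those is not given in the sources used here.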

How the results depend on the processing

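The H3K4me3 difference at NGFR was positive under every alternative run, and lay between 1332.33 and 1615.83 bp when 1 replicate was left out. The percentile difference, one of ranks within lists of unequal length, was 72.9 to 90.7 points over the same omissions and is no separate support. With equal numbers of peaks in each library it was 78.8 points. The p of the covered length was always the smallest the design allows, which says nothing about stability. NGFR against the other 7 genes kept its direction, with 1080.76 to 1278.9 bp when a replicate was left out. The H3K27me3 difference at NGFR stayed negative when a replicate was left out, from −1889.33 to −1166.67 bp, was −578 bp with equal numbers of peaks and was 0 bp at a q-value of at most 1e-05. The difference in H3K27me3 at NTRK2, −7.00 bp with all data, was 742 bp with equal numbers of peaks, 879 bp with peaks joined, 174 bp in start site windows alone, −1125 bp without vehicle replicate 1, 1034 bp without vehicle replicate 2, 69.8 bp without vehicle replicate 3 and 538 bp without OA replicate 3. That at NTRK3, 461 bp, was −263 bp without OA replicate 1 and reached 824 bp without OA replicate 2 or 3. The causes were not tested. Genes longer in H3K4me3 in every OA library numbered 1245 to 4426 when a replicate was left out, the most without OA replicate 1 and 2414 without vehicle replicate 1. Genes shorter numbered 45 to 1982, with 1982 without vehicle replicate 3, 208 without OA replicate 3 and 102 without OA replicate 2. The shorter genes numbered 81 with 1 kb windows and 99 with the replicate block. For H3K27me3, genes shorter in every OA library numbered 4 at the strict q-value, 176 with equal numbers of peaks, 792 with the block and 385 to 1206 with a replicate left out (1206 and 676 without vehicle replicates 1 and 3, 867 and 675 without OA replicates 1 and 2). Genes longer numbered 1, 67, 76 and 48 to 302 in the same order (302 without OA replicate 3, 108 and 63 without OA replicates 2 and 1, 103 without vehicle replicate 2), and 21 in start site windows alone. With regions of any library, 16 H3K4me3 regions were found in place of 7. Deviations from the group mean, gene by gene, were correlated between vehicle and OA replicates. Same-numbered replicates 1, 2 and 3 gave −0.0578, 0.123 and −0.0306 for H3K4me3 and 0.137, 0.101 and −0.00212 for H3K27me3. Pairs of unlike number gave −0.0853 to 0.110 for H3K4me3 and −0.1245 to 0.0390 for H3K27me3. For H3K27me3 the same-numbered pairs of replicates 1 and 2 were thus above every pair of unlike number. Whether same-numbered samples were prepared together was not tested. In the exact test with the replicate block the smallest p is 0.25, which NGFR had for both marks. No depth was known for H3K27me3. Shallow libraries of either mark can miss weak peaks, such as the H3K4me3 peak of 8 reads at NGFR in vehicle replicate 1.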
